A study of Homo sapiens with 12 samples.

Results

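The genes described here encode the enzymes, membrane proteins and proton pump of the lysosome, together with regulators tied to TFEB, a transcription factor of lysosomal genes. They form a set of 36 genes, listed by name for their lysosomal roles and matched to probes through the platform's gene annotation. The list was drawn up with earlier results of these data known. A probe was read for 35 of them, among 20046 genes named on the arrays, and CD63 was not analysed here. After a filter on detection, 33 members were tested in MKN45 cells and 32 in AGS cells, of 11240 and 10920 genes tested in all.

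Lysosomes are acidic compartments in which proteins, glycans and lipids delivered by endocytosis or autophagy are broken down. The vacuolar ATPase (V-ATPase) pumps protons into them, soluble hydrolases work at the resulting low pH, and most of these enzymes arrive bearing a mannose 6-phosphate tag. TFEB and its relative TFE3 are known to bind an E-box element, called CLEAR, in the promoters of many of these genes when nutrient signalling through mTORC1 at the lysosome is low.

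The study asked what the orphan nuclear receptor ESRRG does in gastric cancer cells. MKN45 and AGS are established human gastric cancer cell lines. Both were transduced for 3 days with lentivirus carrying either ESRRG (MKN45 ESRRG OE and AGS ESRRG OE), which the methods place behind an EF1 promoter, or a control vector (MKN45 control and AGS control), with 3 arrays in each of the 4 groups. All 4 groups were thus infected, and every value comes from a bulk population of 1 cell line. Total RNA was hybridized to 12 Illumina Human BeadChip V4 arrays. Values are log2 intensities after quantile normalization of the 12 arrays together, and a log2 fold change is ESRRG OE minus control unless said otherwise. Errors are SD over 3 arrays for levels and SE for fold changes. Differences were tested with limma, with Benjamini-Hochberg adjustment over all genes tested and a threshold of 0.05. Nothing in the sources ties the 3 samples of a group to separate cultures, so the p-values reflect the spread among these samples alone, and that spread may be technical. The number of arrays limits the precision.

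Between 18795 and 20397 probes were detected per array (detection p under 0.05), and the correlation between arrays of a group over all tested genes lay between 0.9916 and 0.9965. Arrays labelled MKN45 control and AGS control correlated with each other at 0.981 to 0.985, more closely than ESRRG OE arrays did with their own controls (0.961 to 0.969 in MKN45 and 0.949 to 0.954 in AGS). Only 68 of 11959 genes differed by more than 2-fold between the line controls. MET, which is known to be amplified in MKN45 cells and was looked at after its values were seen, was at 9.24 ± 0.06 log2 units in MKN45 control and 9.06 ± 0.11 in AGS control samples (SD, n = 3; adjusted p = 0.136, limma). The line names are used below as labelled. Of 3 ESRRG probes, 2 were not detected on any array, and the other was at 6.94 in MKN45 ESRRG OE against 6.91 in MKN45 control samples and at 6.90 in AGS ESRRG OE against 7.27 in AGS control samples. Where these probes lie relative to the introduced cDNA was not determined, so they do not check the labels. All 6 epithelial markers examined were detected on every array. Of 8 macrophage and leukocyte markers, CSF1R, AIF1 and LYZ were detected on all arrays, and PTPRC, CD14 and MRC1 on 0 arrays.

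Promoter sequences, from 250 bases before to 50 after the first listed start site, were matched in RefSeq (GRCh38.p14) for 27 of the 36 members. They are shown because the CLEAR element is the feature by which lysosomal genes are usually grouped. The motif TCACGTGA (the CLEAR core, which reads the same on both strands and contains the E-box CACGTG) lay in 5 of these 27 promoters (18.5%), against 283 of 27305 promoters of all genes (1.04%) and 1.43% of protein-coding promoters. CACGTG itself lay in 8 member promoters (29.6%, against 7.43% of all promoters). Letter matches of this kind describe the window and not a bound site. One match is given for each of the 5 members with the longer motif, the match in capitals within 30 bases, each read 5′ to 3′ along the strand of the gene.
LAMP1, chr13:113297199-113297228, plus strand: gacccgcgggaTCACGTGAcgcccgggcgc
MCOLN1, chr19:7522571-7522600, plus strand: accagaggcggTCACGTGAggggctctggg
CTSA, chr20:45891298-45891327, plus strand: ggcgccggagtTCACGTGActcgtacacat
GAA, chr17:80101538-80101567, plus strand: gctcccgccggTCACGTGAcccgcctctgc
ATP6V0D1, chr16:67481199-67481228, minus strand: cccccttatggTCACGTGAggcgcttgcgc
LAMP1, MCOLN1 and GAA each held 2 matches and CTSA and ATP6V0D1 held 1. The promoter of CTSD held the shorter E-box alone, as did those of CD63 and NEU1. That of CTSD is shown, with the match in capitals, because CTSD is among the members with the largest rises. The choice thus rests on the outcome and links no E-box to a rise.
CTSD, chr11:1763957-1763986, minus strand: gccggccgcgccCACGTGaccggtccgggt
AAGGTCA, the element known to be bound by receptors of the ESRRG family, was searched on both strands and lay in 1 member promoter (3.7%, against 3.97% of all promoters), that of SQSTM1, where it reads on the opposite strand.
SQSTM1, chr5:179806178-179806207, plus strand: cgggacctctgTGACCTTgggtctctgccc

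On ESRRG overexpression the lysosomal genes moved in both directions in both lines. NPC1, GM2A, CTSD, CTSC, PSAP, CD68 and GAA rose in both lines, and the largest rise in each line was that of NPC1, a cholesterol exporter of the lysosomal membrane. PPT1 and the V-ATPase subunits ATP6V0D1 and ATP6V1B2 were lower in both lines. With another scaling of the arrays, however, PPT1 and ATP6V0D1 turned to values just above 0 in MKN45, and ATP6V1B2 passed in neither line. Tested with each probe's own spread, NPC1, GM2A, CTSD and CTSC alone kept their MKN45 calls. In MKN45 there were 8 rises and 4 falls among the members, with 21 not past the test, where 20.1% of all genes tested rose and 20.9% fell. In AGS there were 9 rises and 7 falls, with 16 not past the test, where 24.1% of all genes rose and 27.2% fell. The median log2 fold change of the members was 0.08 in MKN45 and 0.05 in AGS, beside -0.01 and -0.02 over all genes tested. In MKN45 all ESRRG OE arrays lay above all controls for 12 of 33 members and below them for 5, against 2832 and 2806 of 11240 genes. In AGS this held for 12 and 7 of 32 members, against 2939 and 3308 of 10920 genes. A lack of overlap between groups is thus common among all genes and is no mark of the members. Of the 8 members that rose in MKN45 and the 9 that rose in AGS, 7 were shared (87.5% and 77.8%), and 3 falls were shared (75% of those in MKN45 and 42.9% of those in AGS). Over all genes the shared rises were 70.2% of those in MKN45 and 60.3% of those in AGS, and the shared falls 72.8% and 57.5%, so nothing particular to the members is read from the overlap. No member and 77 of all genes rose in one line and fell in the other, with both changes past the test.

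The balance of rises and falls depends on the scaling of the arrays. With each array scaled to one median instead of quantile normalized, the median of all genes shifted up by 0.17 in MKN45 and 0.11 in AGS, and 88.7% of all calls in MKN45 and 70.7% in AGS were rises, against 49.1% and 47.0% with quantile normalization. Under that scaling 16 members rose and 0 fell in MKN45, and 12 rose and 4 fell in AGS. Relative to the shifted median, all 12 members called in MKN45 and all 16 called in AGS kept their sign. These members were picked by their quantile-normalized calls on the same arrays, so the shared sign is no check of the calls. The relative values were not tested, and those of PPT1 and ATP6V0D1 in MKN45 were -0.15 and -0.13. The members' median shifted by more than that of all genes in both lines. In MKN45 the members' median became 0.35 (0.19 above the median of all genes, against 0.10 above it with quantile normalization). In AGS it became 0.18 (0.09 above the median of all genes, against 0.07 above it with quantile normalization). Among falls, CTSB in MKN45 (-0.18, adjusted p = 0.483) and GLA (-0.15, adjusted p = 0.271) and LIPA (-0.12, adjusted p = 0.44) in AGS no longer passed under that scaling (limma). Nor did ATP6V1B2 in either line (-0.03, adjusted p = 0.886 in MKN45 and -0.26, adjusted p = 0.0775 in AGS, limma).

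**Figure D1:**
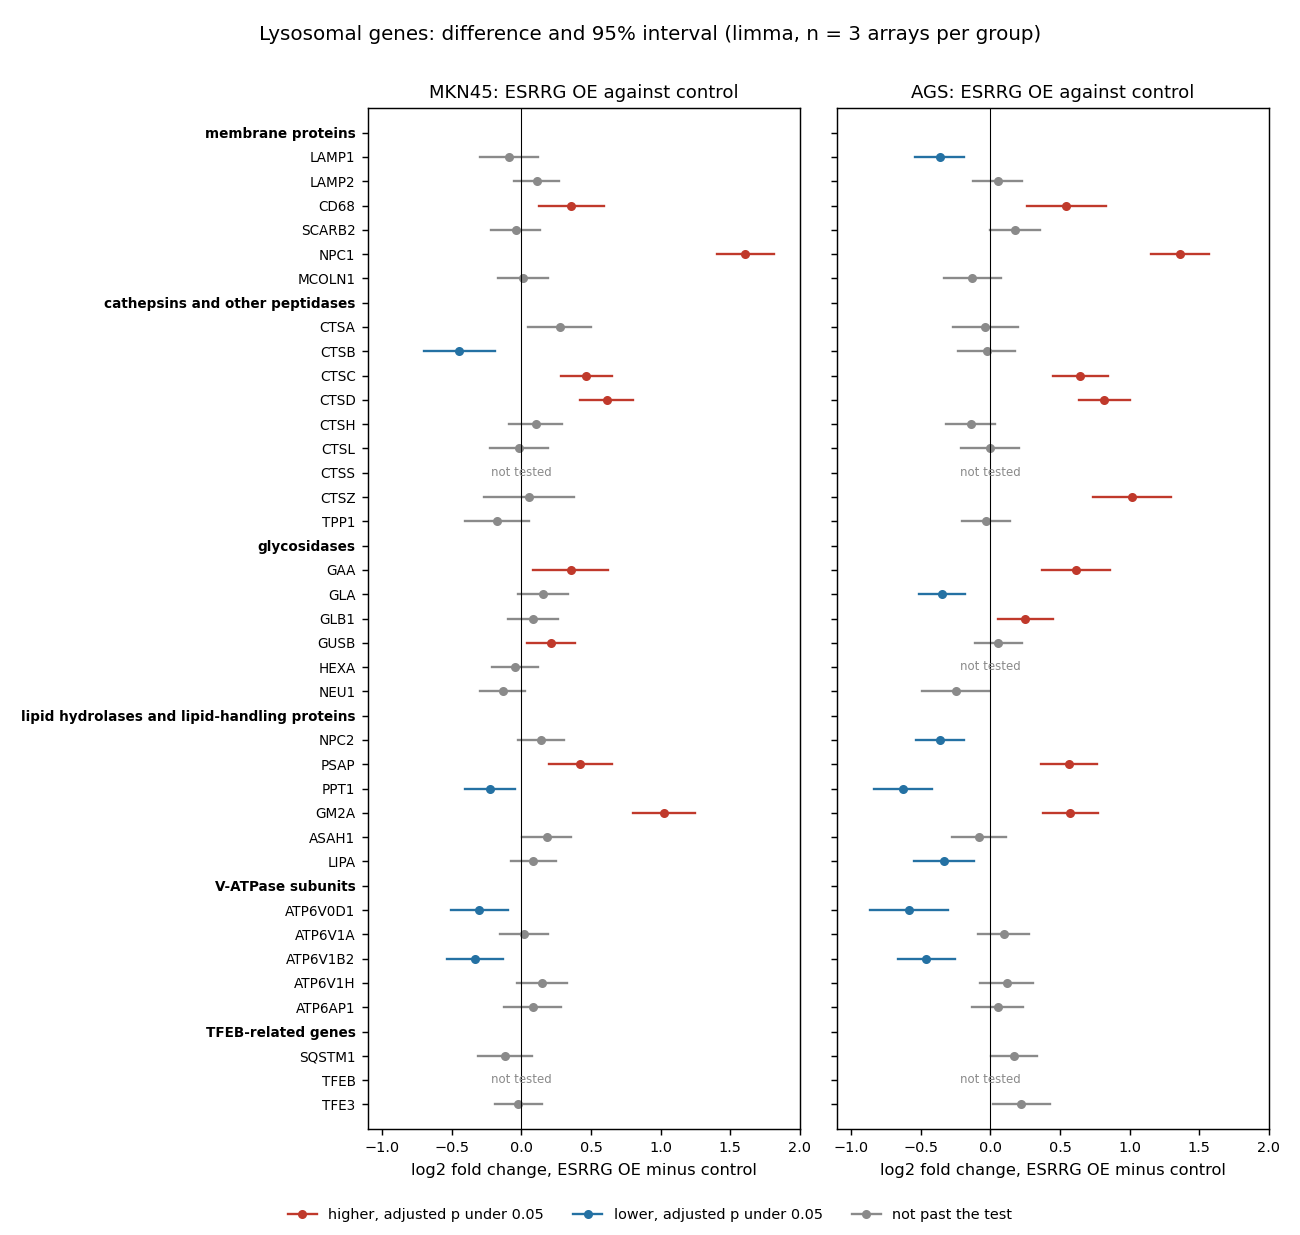
Log2 fold change (ESRRG OE minus control, x axis) of each lysosomal gene (y axis, grouped by role) in MKN45 (left) and AGS (right), with 95% intervals from limma and n = 3 arrays per group; red and blue points are higher and lower at an adjusted p under 0.05. NPC1 stands farthest to the right in both lines (1.61 in MKN45 and 1.36 in AGS), and the falls of PPT1, ATP6V0D1 and ATP6V1B2 in MKN45 are small and depend on the scaling of the arrays.

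Among the membrane proteins, NPC1 and CD68 rose in both lines. NPC1 read 10.74, 10.90 and 10.58 log2 units on the MKN45 ESRRG OE arrays and 9.24, 9.01 and 9.14 on the MKN45 control arrays. It read 10.95, 10.89 and 10.81 in AGS ESRRG OE and 9.65, 9.30 and 9.62 in AGS control samples. Every ESRRG OE array lay more than 1 log2 unit above every control array of its line. The rise was 3.05-fold in MKN45 (log2 fold change 1.61, SE 0.09, adjusted p = 2.35e-08) and 2.57-fold in AGS (1.36, SE 0.10, adjusted p = 2.25e-08, limma), and these calls held under all 16 alternatives tried in each line. In a bulk sample a change in the RNA per cell and a change in the share of cells that carry it cannot be told apart. CD68, a heavily glycosylated membrane protein also used as a macrophage marker, rose by 0.36 in MKN45 (SE 0.11, adjusted p = 0.0167) and 0.55 in AGS (SE 0.13, adjusted p = 0.00311, limma). Another CD68 probe rose by 1.44 in MKN45 (SE 0.10) and 0.73 in AGS (SE 0.09), and the last by 0.77 and 0.54, all past the test over probes. The MKN45 call on the chosen CD68 probe was lost when control replicate 1 was left out (adjusted p = 0.0787) and when ESRRG OE replicate 2 was (0.0853). The summed intensity of the 8 leukocyte markers was 2907 to 3243 in MKN45 ESRRG OE and 2674 to 3115 in MKN45 control samples, and 12277 to 12552 in AGS ESRRG OE and 10476 to 11345 in AGS control samples. These sums are of linear intensities, and LYZ, by far the brightest of the 8, makes up most of each. CSF1R, the receptor for macrophage colony-stimulating factor, averaged 8.29 in MKN45 ESRRG OE and 7.06 in MKN45 control samples, and 8.53 in AGS ESRRG OE and 7.28 in AGS control samples. AIF1, a macrophage calcium-binding protein, averaged 7.47 in MKN45 ESRRG OE and 7.66 in MKN45 control samples, and 7.51 in AGS ESRRG OE and 8.40 in AGS control samples. LYZ, the gene of lysozyme, averaged 10.95 in MKN45 ESRRG OE and 10.93 in MKN45 control samples, and 13.46 in AGS ESRRG OE and 13.27 in AGS control samples. The detected leukocyte markers thus did not share a direction, and the pan-leukocyte gene PTPRC and CD14 were not detected on any array. Their part in the CD68 values was not tested.

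LAMP1, with LAMP2 the main glycoprotein of the lysosomal membrane, read 12.01, 11.91 and 11.78 in MKN45 ESRRG OE and 12.16, 11.82 and 11.99 in MKN45 control samples, and these groups overlapped. It read 11.65, 11.66 and 11.74 in AGS ESRRG OE and 12.15, 11.99 and 11.99 in AGS control samples, where each ESRRG OE array was below each control array. The fall in AGS was by 0.36 on the log2 scale (SE 0.08, adjusted p = 0.00173, limma), while the value in MKN45 was -0.09 (SE 0.10, adjusted p = 0.501) and became 0.13 with scaling to one median. LAMP2, which takes part in autophagosome fusion and chaperone-mediated autophagy, did not pass the test on its chosen probe (0.11 in MKN45 and 0.05 in AGS), but 1 of its 5 other detected probes fell by 0.27 in MKN45 (SE 0.08, adjusted p = 0.0124 over probes) and by 0.30 in AGS (SE 0.09, adjusted p = 0.0121, limma). The sources used here do not tie these probes to the splice forms of LAMP2. SCARB2, the receptor that carries glucocerebrosidase, had log2 fold changes of -0.04 in MKN45 and 0.18 in AGS, and the calcium channel gene MCOLN1 of 0.01 and -0.13, with no call.

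Of the cathepsins and other peptidases, CTSD and CTSC rose in both lines, CTSZ rose in AGS, and CTSB fell in MKN45. CTSD, the main aspartic protease of the lysosome, read 11.52, 11.42 and 11.35 in MKN45 ESRRG OE and 10.91, 10.66 and 10.89 in MKN45 control samples. In AGS it read 11.58, 11.43 and 11.54 in ESRRG OE and 10.64, 10.82 and 10.65 in control samples. The groups did not overlap in either line, and the rise was 1.53-fold in MKN45 (0.61, SE 0.09, adjusted p = 0.000102) and 1.76-fold in AGS (0.82, SE 0.09, adjusted p = 1.34e-06, limma). CTSC, the dipeptidyl peptidase that activates granule serine proteases, read 11.17, 11.15 and 10.93 in MKN45 ESRRG OE and 10.66, 10.63 and 10.57 in MKN45 control samples. Its values in AGS were 11.22, 11.07 and 11.05 in ESRRG OE and 10.56, 10.54 and 10.30 in control samples. Both rises were clear of overlap (0.46, SE 0.09, adjusted p = 0.000642 in MKN45 and 0.65, SE 0.09, adjusted p = 2.79e-05 in AGS, limma), and the other 2 CTSC probes also rose in both lines.

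CTSZ, a carboxypeptidase, separated the lines. It read 8.25, 7.57 and 7.83 in MKN45 ESRRG OE and 7.84, 7.58 and 8.06 in MKN45 control samples, which overlapped fully (0.06, SE 0.15, adjusted p = 0.796). In AGS it read 8.65, 8.66 and 8.06 in ESRRG OE and 7.32, 7.55 and 7.44 in control samples, a 2.02-fold rise (1.02, SE 0.13, adjusted p = 1.01e-05, limma) in which ESRRG OE replicate 3 lay below the other two but above all controls. CTSB, a cysteine protease with both endo- and exopeptidase activity, read 8.44, 8.65 and 8.84 in MKN45 ESRRG OE and 8.91, 9.34 and 9.02 in MKN45 control samples. Its AGS values were 8.997, 9.10 and 8.98 in ESRRG OE and 8.85, 9.12 and 9.20 in control samples. The MKN45 groups did not overlap and the AGS groups did. The fall in MKN45 was by 0.45 (SE 0.12, adjusted p = 0.00811, limma) and the other tested CTSB probe fell by 0.34 (adjusted p = 0.0308 over probes), while the AGS value was -0.03 (SE 0.10, adjusted p = 0.829). CTSA, the protective protein of the sialidase complex, had 0.27 in MKN45 (adjusted p = 0.0533) and -0.04 in AGS, and CTSH, CTSL and TPP1 lay between -0.18 and 0.10 in both lines. CTSS, a cathepsin of antigen-presenting cells, was not detected on any array and was not tested.

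The glycosidases gave small changes of either sign. GAA, the acid glucosidase that degrades glycogen, rose by 0.35 in MKN45 (SE 0.13, adjusted p = 0.0367), where the groups overlapped, and by 0.61 in AGS (SE 0.12, adjusted p = 0.00036, limma). Its other probe rose by 0.36 and 0.46. GUSB, the beta-glucuronidase, read 9.33, 9.29 and 9.14 in MKN45 ESRRG OE and 9.06, 8.99 and 9.07 in MKN45 control samples, and 9.36, 9.33 and 9.40 in AGS ESRRG OE and 9.29, 9.26 and 9.37 in AGS control samples. The MKN45 groups were apart by a narrow margin (0.21, SE 0.08, adjusted p = 0.0491, limma), and the AGS groups overlapped (0.05, SE 0.08, adjusted p = 0.591). GLA, the alpha-galactosidase deficient in Fabry disease, read 10.73, 10.55 and 10.66 in MKN45 ESRRG OE and 10.58, 10.49 and 10.41 in MKN45 control samples. In AGS it read 9.996, 9.95 and 9.96 in ESRRG OE and 10.35, 10.29 and 10.31 in control samples, groups well apart, and it fell by 0.35 (SE 0.08, adjusted p = 0.00146, limma). The overlapping MKN45 groups gave 0.15 (SE 0.08, adjusted p = 0.154). GLB1, the beta-galactosidase, rose by 0.25 in AGS (SE 0.09, adjusted p = 0.0349) and had 0.08 in MKN45, while its other tested probe did not pass in AGS (0.22, adjusted p = 0.0651 over probes), and NEU1, a sialidase, had -0.14 in MKN45 and -0.25 in AGS with no call. HEXA, a hexosaminidase subunit, had -0.04 in MKN45 and was detected on 1 of 6 AGS arrays, too few to be tested. Among these calls the following were lost when a single array was left out. GUSB in MKN45 was lost without any one of the 3 control arrays, ESRRG OE replicate 1 or ESRRG OE replicate 2 (adjusted p 0.0737 to 0.176), and GAA in MKN45 without control replicate 1 or 2 or ESRRG OE replicate 1 or 2 (0.0808 to 0.149). GLB1 in AGS was lost without any one array but ESRRG OE replicate 3 (0.0599 to 0.188).

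Of the proteins that act on lipids, GM2A and PSAP rose in both lines and PPT1 fell in both, though in MKN45 the fall of PPT1 depended on the scaling. GM2A, the activator that presents GM2 ganglioside to hexosaminidase A, read 9.69, 9.59 and 9.40 in MKN45 ESRRG OE and 8.64, 8.64 and 8.32 in MKN45 control samples. It read 8.94, 8.97 and 8.85 in AGS ESRRG OE and 8.16, 8.46 and 8.42 in AGS control samples. All ESRRG OE arrays were above all controls of their line, by 2.04-fold on average in MKN45 (1.03, SE 0.10, adjusted p = 4.48e-06) and 1.49-fold in AGS (0.57, SE 0.09, adjusted p = 8.47e-05, limma). PSAP, the precursor of the saposins, which are activators of sphingolipid hydrolases, rose by 0.42 in MKN45 (SE 0.11, adjusted p = 0.00551) and 0.57 in AGS (SE 0.10, adjusted p = 0.000136), and its other probe by 0.37 and 0.53. PPT1, a thioesterase that removes palmitate from proteins, read 11.58, 11.78 and 11.68 in MKN45 ESRRG OE and 11.99, 11.82 and 11.91 in MKN45 control samples. It read 10.76, 10.77 and 11.02 in AGS ESRRG OE and 11.62, 11.34 and 11.49 in AGS control samples. No ESRRG OE array reached the controls of its line. The fall was by 0.63 in AGS (SE 0.10, adjusted p = 6.1e-05, limma) and by 0.23 in MKN45 (SE 0.08, adjusted p = 0.0428), where it became 0.01 with scaling to one median and was lost without control replicate 1 or 3 or ESRRG OE replicate 1 or 3 (adjusted p 0.0843 to 0.171).

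NPC2, the soluble partner that hands cholesterol to NPC1, read 13.16, 13.09 and 13.18 in MKN45 ESRRG OE and 13.05, 12.9997 and 12.97 in MKN45 control samples. It read 12.71, 12.75 and 12.74 in AGS ESRRG OE and 13.18, 13.01 and 13.09 in AGS control samples. The ESRRG OE arrays were thus above their controls in MKN45 (0.14, SE 0.08, adjusted p = 0.158, not past the test) and below them in AGS (-0.36, SE 0.08, adjusted p = 0.00159, limma). LIPA, the acid lipase that frees cholesterol from its esters, fell by 0.33 in AGS (SE 0.10, adjusted p = 0.0121, limma), where the groups overlapped, and had 0.08 in MKN45. The AGS call was lost without control replicate 1 (0.0526) or 3 (0.0554). ASAH1, the acid ceramidase, had 0.18 in MKN45 (adjusted p = 0.0985) and -0.08 in AGS.

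Of the 5 V-ATPase genes, 2 fell and 0 rose in each line with quantile normalization, where 20.9% of all genes fell in MKN45 and 27.2% in AGS. These counts are too small to set the V-ATPase genes apart from all genes. The MKN45 falls were not seen with scaling to one median. ATP6V0D1, a subunit of the membrane sector, read 9.66, 9.37 and 9.52 in MKN45 ESRRG OE and 9.96, 9.70 and 9.80 in MKN45 control samples. It read 9.41, 9.45 and 8.95 in AGS ESRRG OE and 9.86, 10.07 and 9.63 in AGS control samples, so every ESRRG OE array was below its controls. The fall was by 0.30 in MKN45 (SE 0.10, adjusted p = 0.0213) and by 0.58 in AGS (SE 0.13, adjusted p = 0.00153, limma), and the MKN45 value became 0.03 with scaling to one median. ATP6V1B2, a subunit of the cytosolic sector that hydrolyses ATP, read 10.28, 10.19 and 10.13 in MKN45 ESRRG OE and 10.73, 10.40 and 10.47 in MKN45 control samples. Its AGS values were 9.96, 9.96 and 9.98 in ESRRG OE and 10.54, 10.20 and 10.54 in control samples. Again no ESRRG OE array overlapped its controls, with falls by 0.33 in MKN45 (SE 0.09, adjusted p = 0.0114) and 0.46 in AGS (SE 0.10, adjusted p = 0.000873, limma). With scaling to one median the ATP6V1B2 values were -0.03 (adjusted p = 0.886) and -0.26 (adjusted p = 0.0775). In MKN45, ATP6V0D1 did not pass without control replicate 1 (0.0893), control replicate 3 (0.0531) or ESRRG OE replicate 2 (0.124), nor ATP6V1B2 without control replicate 1 (0.0518). ATP6V1A, which carries the catalytic site, ATP6V1H and the accessory subunit ATP6AP1 lay between 0.02 and 0.15 in both lines with no call.

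Among the TFEB-related members no change passed the test, although in AGS TFE3 and SQSTM1 did so under some alternatives. TFEB itself read 6.92, 6.84 and 6.87 in MKN45 ESRRG OE and 6.86, 6.83 and 6.78 in MKN45 control samples, and 6.90, 6.94 and 6.88 in AGS ESRRG OE and 6.95, 6.94 and 6.94 in AGS control samples. Its probe was not detected on any of the 12 arrays, so it was not tested. TFE3 read 7.29, 7.14 and 7.13 in MKN45 ESRRG OE and 7.18, 7.18 and 7.27 in MKN45 control samples (-0.02, SE 0.08, adjusted p = 0.858). In AGS it read 7.38, 7.52 and 7.75 in ESRRG OE and 7.36, 7.26 and 7.36 in control samples. The AGS groups lay side by side without overlap (0.22, SE 0.10, adjusted p = 0.0655, limma), and this difference passed with scaling to one median (0.32, adjusted p = 0.0174), in 1 fit of all 12 arrays (adjusted p = 0.044) and without ESRRG OE replicate 1 (0.31, adjusted p = 0.0232). SQSTM1, the autophagy receptor p62, read 12.69, 12.59 and 12.44 in MKN45 ESRRG OE and 12.79, 12.57 and 12.71 in MKN45 control samples, which overlapped (-0.12, SE 0.09, adjusted p = 0.326). Its AGS values were 13.16, 13.18 and 13.09 in ESRRG OE and 12.98, 12.99 and 12.95 in control samples, apart by 0.17 (SE 0.08, adjusted p = 0.0811, limma), which passed with quantile normalization within the line (adjusted p = 0.0487), with each probe's own spread (0.0169) and with the mean of a gene's probes (0.0371).

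**Figure D2:**
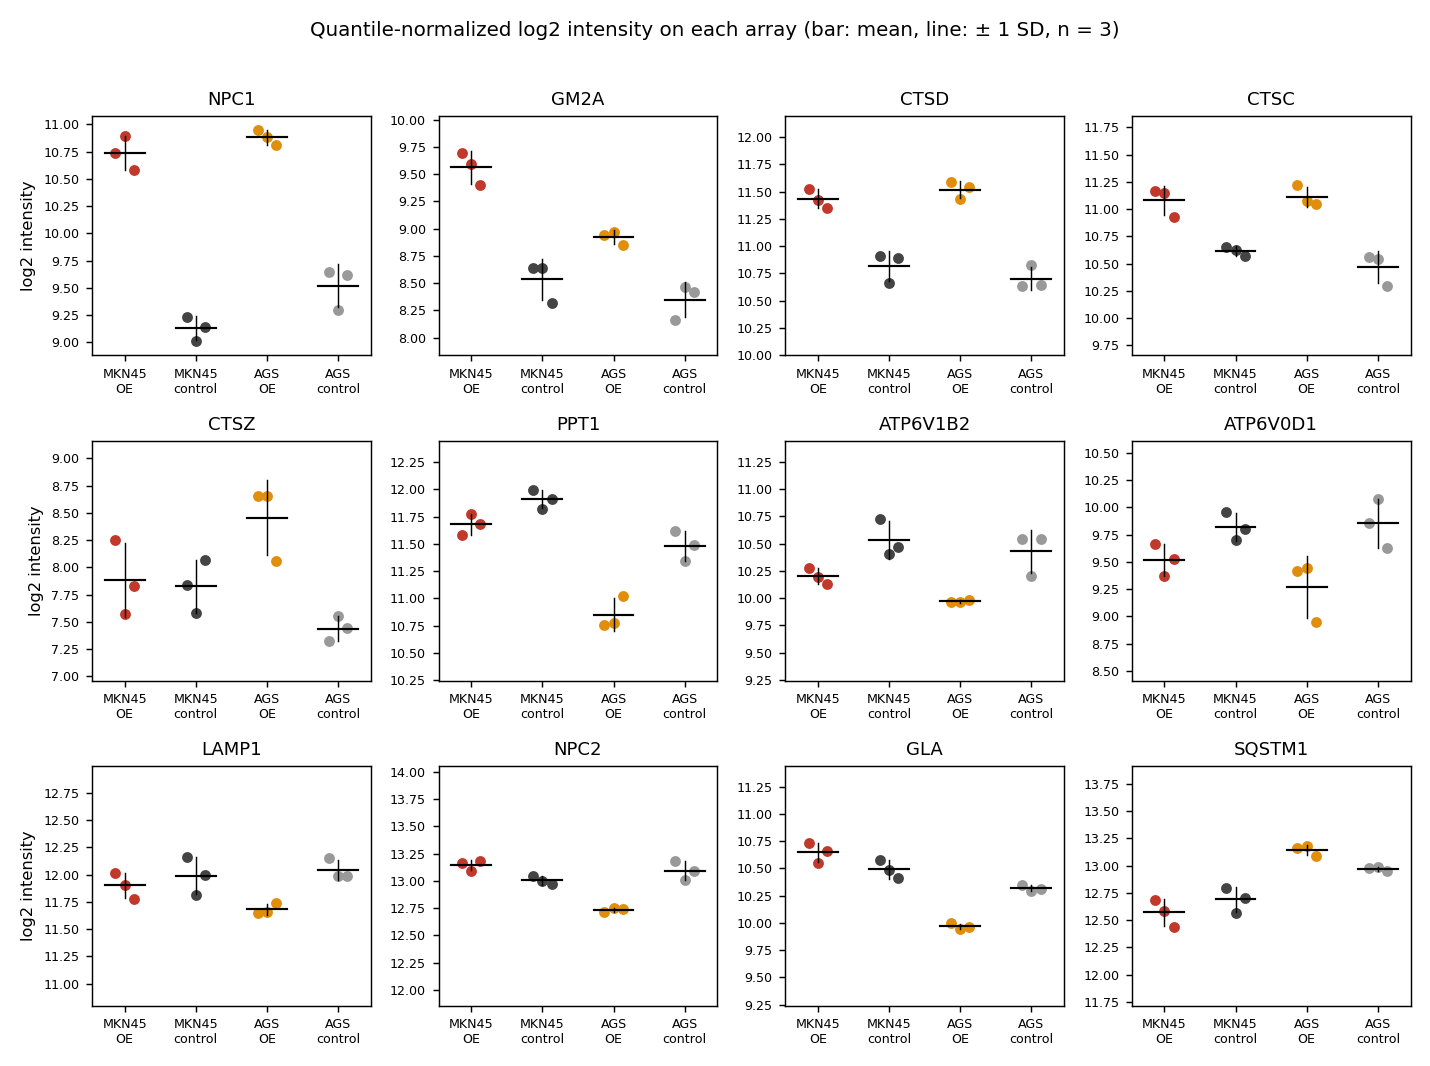
Quantile-normalized log2 intensity (y axis) of 12 lysosomal genes on each of the 12 arrays, by group (x axis: MKN45 ESRRG OE, MKN45 control, AGS ESRRG OE, AGS control); each point is 1 array, with the mean (bar) and ± 1 SD (line), and every panel spans the same number of log2 units. For NPC1 the ESRRG OE arrays (10.58 to 10.95) stand above all control arrays (9.01 to 9.65), while for NPC2 and GLA the AGS ESRRG OE arrays alone lie below the rest.

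Members that carry the CLEAR core among the 27 matched promoters did not share a direction. The other members were not searched, and control by TFEB was not tested. Of the 5 genes shown above with TCACGTGA, GAA rose in both lines, ATP6V0D1 fell in both with quantile normalization and in AGS alone with scaling to one median, LAMP1 fell in AGS, and MCOLN1 and CTSA passed in neither. CTSD, with the shorter E-box, rose in both lines, and NEU1, which also holds one, passed in neither. CD63, which holds one too, was not analysed. SQSTM1, with the AAGGTCA element, passed in neither line.

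The effect of ESRRG OE in MKN45 was set against that in AGS by the line-by-vector interaction over all 12 arrays, given as MKN45 minus AGS. It passed for 5 of 33 members, where 11.1% of the 11959 genes tested passed. The MKN45 effect was above the AGS effect for GLA (0.50, SE 0.11, adjusted p = 0.00488), NPC2 (0.50, SE 0.10, adjusted p = 0.00411), GM2A (0.45, SE 0.14, adjusted p = 0.0474) and LIPA (0.42, SE 0.13, adjusted p = 0.0402, limma), where 5.33% of all genes were above. It was below the AGS effect for CTSZ (-0.96, SE 0.22, adjusted p = 0.00835), where 5.81% of all genes were below. For GM2A both lines rose and the rise was larger in MKN45, whereas GLA, NPC2 and LIPA fell in AGS and did not pass in MKN45. CTSB (-0.42, adjusted p = 0.102), LAMP1 (0.27, adjusted p = 0.181) and PPT1 (0.40, adjusted p = 0.051) did not pass, so their effects are not shown to differ between the lines. NPC2 alone of these 5 held under all 20 alternatives. With scaling to one median GLA (0.59) and CTSZ (-0.84) both had an adjusted p of 0.0677, and with each probe's own spread CTSZ had 0.121. LIPA was lost without any one of 10 arrays (adjusted p 0.05 to 0.109; it was kept only without AGS control replicate 2 or AGS ESRRG OE replicate 3), and GM2A without any one of the 3 AGS ESRRG OE arrays, AGS control replicate 2 or 3, MKN45 control replicate 3, or MKN45 ESRRG OE replicate 1 or 2 (0.0728 to 0.133).

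**Figure D3:**
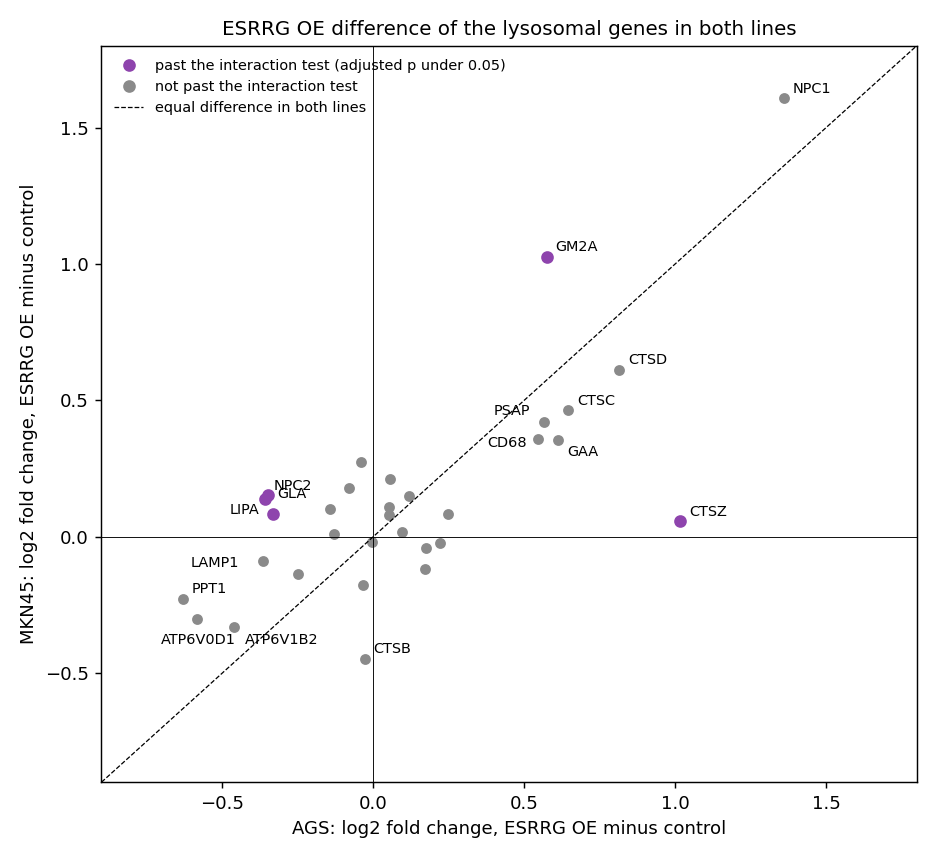
Log2 fold change (ESRRG OE minus control) of each lysosomal gene tested in both lines, in MKN45 (y axis) and AGS (x axis), n = 3 arrays per group; purple points passed the interaction test and the dashed line marks equal differences. CTSZ lies far to the right of the line (0.06 in MKN45 and 1.02 in AGS), and GM2A, GLA, NPC2 and LIPA lie above it.

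The lines were also compared without ESRRG. In MKN45 control against AGS control samples 2 of 33 members were higher and 4 lower, where 7.28% of all genes tested were higher and 8.85% lower. Of 17 other probes tested for 11 members, 12 gave the same call (higher, lower or not past the test) as the chosen probe. PPT1 was higher in MKN45 control (11.99, 11.82 and 11.91) than in AGS control samples (11.62, 11.34 and 11.49), by 0.43 (SE 0.09, adjusted p = 0.0027, limma), and it was the only one of the 6 to hold under all 14 alternatives. HEXA was not detected on any AGS control array. It was higher in MKN45 control samples (difference of measured means 0.24, SE 0.08, adjusted p = 0.0413, limma). The mean of the brighter group was 1.11-fold the higher of the dim probe's own level and the lowest detected level. That ratio takes no account of the spread among arrays and is not a lower limit. NPC1 (-0.39, adjusted p = 0.00981), SQSTM1 (-0.28, adjusted p = 0.0217), GUSB (-0.27, adjusted p = 0.0197) and LAMP2 (-0.26, adjusted p = 0.0183, limma) were lower in MKN45 control samples, although another LAMP2 probe was higher there (0.33, adjusted p = 0.00661 over probes). With scaling to one median 0 members were lower. For NPC1 the MKN45 control arrays (9.24, 9.01 and 9.14) were all below the AGS control arrays (9.65, 9.30 and 9.62), as for 1873 of all 11959 genes tested. The NPC1 call was lost without AGS control replicate 1 (0.0547) or 3 (0.0517). GUSB was lost without AGS control replicate 3 (0.0833) or MKN45 control replicate 2 (0.0611), SQSTM1 without AGS control replicate 1 (0.0541) or 2 (0.0571) or MKN45 control replicate 2 (0.0965), LAMP2 without AGS control replicate 1 (0.0906) or MKN45 control replicate 3 (0.0548), and HEXA without any one array but AGS control replicate 3 (0.0671 to 0.171).

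The same comparison was made between the lines with ESRRG. In MKN45 ESRRG OE against AGS ESRRG OE samples 7 members were higher and 6 lower, where 18.2% of all genes tested were higher and 16.7% lower. Of 17 other probes tested for 11 members, only 8 gave the same call as the chosen probe, so the call of a member often depended on the probe. Within the lines the same call was given by 14 of 15 other probes in MKN45 and 13 of 15 in AGS. PPT1 (0.83, SE 0.09, adjusted p = 9.67e-07), GLA (0.68, SE 0.08, adjusted p = 1.1e-06), GM2A (0.64, SE 0.10, adjusted p = 6.4e-05), LIPA (0.52, SE 0.09, adjusted p = 0.000169), NPC2 (0.41, SE 0.07, adjusted p = 0.000224), CTSH (0.31, adjusted p = 0.00786) and HEXA (0.23, adjusted p = 0.0318, limma) were higher in MKN45 ESRRG OE samples, and HEXA was detected on 1 of the 3 AGS ESRRG OE arrays, so its level there is near background. CTSZ (-0.57, adjusted p = 0.00776), SQSTM1 (-0.57, adjusted p = 1.97e-05), CTSB (-0.38, adjusted p = 0.0128), TFE3 (-0.37, adjusted p = 0.00317), GLB1 (-0.33, adjusted p = 0.00623) and LAMP2 (-0.21, adjusted p = 0.0369, limma) were lower, and LAMP2 turned to 0.10 with scaling to one median and to 0.03 when its probes were averaged. For PPT1 the 3 MKN45 ESRRG OE arrays all stood above the 3 AGS ESRRG OE arrays, and for SQSTM1 all stood below. Of all 11959 genes tested, 3129 stood above and 2625 below in this way. With scaling to one median only TFE3 of the 6 lower members passed (-0.32, adjusted p = 0.02), and SQSTM1 (-0.19, adjusted p = 0.126), GLB1 (-0.03, adjusted p = 0.861), CTSB (-0.15, adjusted p = 0.483) and CTSZ (-0.40, adjusted p = 0.0732) did not (limma). PPT1, GLA, GM2A, LIPA, NPC2 and TFE3 held under all 14 alternatives. CTSZ was lost without AGS ESRRG OE replicate 2 (0.0511) or MKN45 ESRRG OE replicate 2 (0.0648), CTSB without AGS ESRRG OE replicate 2 (0.056) or MKN45 ESRRG OE replicate 1 (0.0884), CTSH without MKN45 ESRRG OE replicate 1 (0.0561) and GLB1 without AGS ESRRG OE replicate 1 (0.0533). HEXA was lost without AGS ESRRG OE replicate 2 or 3 or MKN45 ESRRG OE replicate 1 or 2 (0.0746 to 0.124), and LAMP2 without any one array but AGS ESRRG OE replicate 1 (0.0564 to 0.104).

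Further genes of the same compartment were read from lists by role, also drawn up with earlier results of these data known. Their counts are with quantile normalization, where 20.1% of all genes rose and 20.9% fell in MKN45, and 24.1% and 27.2% in AGS. These lists were not run under the alternatives. With scaling to one median the falls over all genes went from 2346 to 439 in MKN45 and from 2971 to 1464 in AGS. Whether the falls in the lists depend on the scaling was not tested. Of other lysosomal hydrolases, 8 rose and 2 fell of 23 tested in MKN45 (median 0.15), and 7 rose and 4 fell of 22 in AGS (median -0.01). SMPDL3A, a phosphodiesterase related to acid sphingomyelinase, rose by 0.83 in MKN45 and 0.73 in AGS. SMPD1, acid sphingomyelinase itself, rose by 0.64 in MKN45 (-0.01 in AGS, adjusted p = 0.898), and SCPEP1, a serine carboxypeptidase, by 0.66 in AGS. GALC, the galactosylceramidase deficient in Krabbe disease, fell by 0.81 in MKN45 and 0.93 in AGS, HYAL2, a hyaluronidase, fell by 0.28 in MKN45, and LGMN, the asparaginyl endopeptidase, fell by 0.34 in AGS. Of other lysosomal membrane proteins, 4 rose and 1 fell of 17 in MKN45 (median 0.14), and 8 rose and 2 fell of 17 in AGS (median 0.21). TPCN1, a two-pore cation channel, rose by 0.56 in MKN45 and 0.72 in AGS, LAPTM4B rose by 0.51 in MKN45 and LAPTM4A by 0.86 in AGS. CTNS, the cystine exporter, fell by 0.53 in MKN45 and 0.67 in AGS, and SLC36A1, a proton-coupled amino acid transporter, fell by 0.28 in AGS.

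Other V-ATPase subunits gave calls of both signs. Of 12 tested in MKN45, 2 rose and 1 fell (median 0.05), and of 10 in AGS, 1 rose and 5 fell (median -0.24). Over all genes 20.1% rose and 20.9% fell in MKN45, and 24.1% and 27.2% in AGS. ATP6V1C1 fell by 0.49 in MKN45 and 0.55 in AGS and ATP6V0A1 by 0.52 in AGS, while ATP6AP2, the prorenin receptor, rose by 0.39 in MKN45 and 0.22 in AGS and ATP6V0B by 0.25 in MKN45. Of genes that deliver hydrolases by mannose 6-phosphate or sortilin, 1 rose and 3 fell of 14 in MKN45 (median -0.04), and 0 rose and 8 fell of 14 in AGS (median -0.23). IGF2R, the large mannose 6-phosphate receptor, rose by 0.29 in MKN45, where VPS35 of the retromer fell by 0.36 and AP1G1 of the AP-1 adaptor by 0.28. GNPTAB, which encodes the enzyme that starts the mannose 6-phosphate tag, fell by 0.47 in AGS, and the sorting adaptor GGA3 fell by 0.40.

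Genes of TFEB control at the lysosome counted 3 rises and 4 falls of 14 in MKN45 (median -0.14), and 0 rises and 5 falls of 14 in AGS (median -0.15). The shares over all genes were 20.1% rises and 20.9% falls in MKN45, and 24.1% and 27.2% in AGS. MITF, a relative of TFEB, rose by 0.36 and RHEB, the GTPase that activates mTORC1, by 0.34 in MKN45, where LAMTOR4 of the Ragulator complex fell by 0.39 and the Rag GTPase RRAGA by 0.28. LAMTOR5 fell by 0.51 and FNIP2, a folliculin partner, by 0.41 in AGS. Of autophagy genes, 7 rose and 2 fell of 21 in MKN45 (median 0.13), and 10 rose and 1 fell of 21 in AGS (median 0.18). MAP1LC3B and GABARAPL1, whose products are conjugated to autophagosome membranes, rose by 1.22 and 1.22 in MKN45 and by 1.70 and 1.27 in AGS. VPS18, of the HOPS and CORVET tethering complexes, fell by 0.53 in MKN45 and 0.78 in AGS, and WIPI2, a phosphoinositide-binding protein of early autophagosomes, fell by 0.23 in MKN45. The interaction was past the test for SMPD1 (0.65, adjusted p = 0.000628), LAPTM4A (-0.68, adjusted p = 0.00137), ATP6V1D (0.59, adjusted p = 0.00181), MITF (0.40, adjusted p = 0.0385) and MAP1LC3B (-0.47, adjusted p = 0.034, limma) among these lists. These were 1 of 23 other hydrolases tested, 1 of 17 other membrane proteins and 1 of 12 other V-ATPase subunits. They were also 1 of 14 TFEB control genes and 1 of 21 autophagy genes. Among delivery genes 0 of 14 passed, while 11.1% of all 11959 genes tested did.

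**Figure D4:**
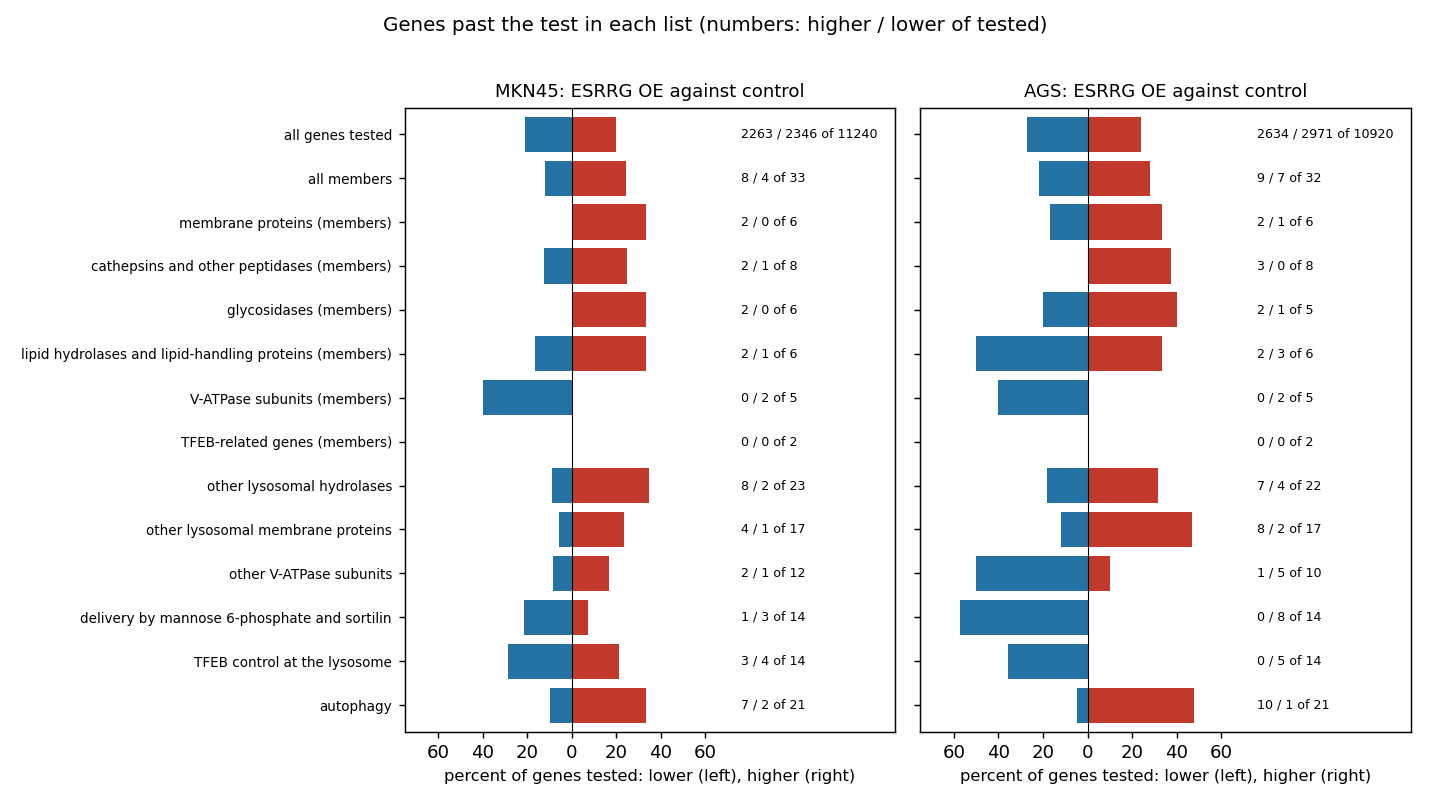
Percent of the genes tested in each list (y axis) that fell (blue, to the left) or rose (red, to the right) with ESRRG OE at an adjusted p under 0.05 in limma, in MKN45 (left) and AGS (right) with quantile normalization; the numbers give higher and lower of tested. The top bar gives all genes tested, 20.1% higher and 20.9% lower in MKN45 and 24.1% and 27.2% in AGS, and the lists hold few genes each.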

How the data were processed

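Arrays were read by the authors on Illumina's BeadArray scanner, and GenomeStudio stands in the submitters' processing notes (its version is not given in the sources used here). They deposited a linear intensity per probe and array without normalization, and a detection p-value per probe from the array's negative controls. A table of quantile-normalized log2 values was also deposited by the authors, which the values computed here matched within 5e-04.

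The deposited intensities of 12 arrays were quantile normalized together without background correction and log2 transformed (R 4.3.3, limma 3.58.1). Of 47323 probes, 30113 had 1 gene symbol in the platform annotation, 8 had several and 17202 were unnamed here. A gene was represented by its probe with the highest mean deposited log2 value, and folds of probes near the background are understated. Probes entered a test when 3 or more of a line's 6 arrays (or of all 12, for comparisons between lines) had a detection p-value under 0.05. Each line was fitted alone with lmFit and eBayes, and the interaction and the line contrasts came from 1 fit of 4 groups. The fits were tested on simulated data. The members and lists were chosen with earlier results of these data known. Values of all samples are given for TFEB, TFE3, SQSTM1 and LAMP1, for the 4 strongest rises and 4 strongest falls in each line, the 4 largest interactions and the 4 largest differences between controls among members past the test, and 2 rises and 2 falls per further list are named. The methods name a random variance test, which like limma shares spread between genes. The alternatives tried were neqc with an offset of 16, one median for all arrays, quantile normalization of each line alone, the deposited log2 values, no detection filter or a p under 0.01, all 12 arrays in 1 fit, the t-test of a legend with the own spread of each probe, the replicate number as a block, the mean of a gene's probes and leaving out each array. No set test was run.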

Additional observations from a re-analysis of the deposited data

Results flagged for a closer look

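The effect of ESRRG OE differed between the lines by the interaction test (MKN45 minus AGS, log2) for 5 lysosomal genes: 0.50 for NPC2, 0.50 for GLA, 0.42 for LIPA, 0.45 for GM2A and -0.96 for CTSZ. For CD68 the chosen probe did not pass this test (-0.19, adjusted p = 0.582, limma), but another detected probe did (0.71, adjusted p = 0.002 over probes), with rises of 1.44 in MKN45 and 0.73 in AGS.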

How the results depend on the processing

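In MKN45, AGS and the 3 comparisons across lines, 4 of 12, 9 of 16, and 1 of 5 (interaction), 1 of 6 (controls) and 6 of 13 (ESRRG OE) member calls held under every alternative. Scaling to one median gave 16 rises and 0 falls in MKN45, 4 falls in AGS, 1 interaction, 0 members lower in MKN45 control than in AGS control, and 17 higher and 1 lower in MKN45 ESRRG OE than in AGS ESRRG OE. It turned the MKN45 values of LAMP1 (0.13), PPT1 (0.012), ATP6V0D1 (0.027), SQSTM1 (0.073) and TFE3 (0.056), and LAMP2 between ESRRG OE groups (0.10, and 0.033 with probes averaged). All genes shifted too, as given above, by less than the members in both lines. Over all genes this scaling called 3455 higher and 439 lower in MKN45, 3533 and 1464 in AGS, 383 interactions, 996 and 308 between controls and 3927 and 659 between ESRRG OE groups. Background correction gave 5 rises and 2 falls in MKN45, 3 interactions (850 over all genes) and 2 members lower in MKN45 control. The test on each probe's own spread gave 5 rises and 1 fall in MKN45 (1629 and 1420 over all genes) and 2 interactions (650 over all genes). Of the main MKN45 calls it lost 8 and gained 2, keeping those of NPC1, GM2A, CTSD and CTSC alone. Its 1 fall in MKN45 was thus a gained call and not one of the falls described above. In AGS it lost 5 member calls and gained 1. One fit of all 12 arrays gave 2 falls in MKN45, and a detection p under 0.01 left 1 member higher in MKN45 control. The cause was not tested.

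Leaving out each array gave 5 to 8 rises and 1 to 5 falls in MKN45, 8 to 9 and 6 to 8 in AGS, 3 to 5 interactions, 1 to 3 members higher and 1 to 4 lower in MKN45 control, and 5 to 9 higher and 3 to 6 lower in MKN45 ESRRG OE. MKN45 rises came to 5 without control replicate 1 or ESRRG OE replicate 2, MKN45 falls to 1 without control replicate 1 and 2 without control replicate 3. Interactions came to 3 without AGS control replicate 3, AGS ESRRG OE replicate 1 or 2, MKN45 control replicate 3 or MKN45 ESRRG OE replicate 1 or 2, and to 863 over all genes without AGS ESRRG OE replicate 2. Between controls, 1 member was higher without AGS control replicate 1 or 2 or MKN45 control replicate 1 or 3, and 1 was lower without AGS control replicate 1 and 2 without AGS control replicate 3 or MKN45 control replicate 2. In MKN45 ESRRG OE, 3 were lower without AGS ESRRG OE replicate 2. TFE3 in MKN45 lay between -0.072 and 0.0093, above 0 without control replicate 3 (0.0093) or ESRRG OE replicate 2 (6.8e-05) or 3 (0.0086).

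Deviations of same-numbered arrays correlated at -0.11, 0.26 and -0.02 in AGS and 0.24, 0.00 and -0.02 in MKN45. Arrays of unlike number reached 0.25 in AGS and 0.23 in MKN45. Between MKN45 control and AGS control arrays the same numbers gave 0.27, 0.16 and -0.02. With 3 arrays per group these values do not settle whether the numbers pair the samples. With the replicate number as a block 8 members rose and 4 fell in MKN45 and 9 rose and 8 fell in AGS, 5 interactions passed, and GUSB in MKN45 was lost (adjusted p = 0.0549, limma). TFEB, CTSS and HEXA in AGS were limited by signal at the background.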
